A study of Mus musculus with 6 samples.

Results

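The mitosis and spindle genes examined here are 36 genes that run cell division: the B and A cyclins and Cdk1, the mitotic kinases and the spindle checkpoint, the chromosomal passenger complex, the kinetochore, spindle motors, the cytokinesis machinery and Top2a. They were picked by function from a list of names and matched to the count tables by Entrez gene number. The rule uses no measured value, but the choice was made with earlier results of these data known. All 36 were found among the 27179 genes of the tables, and all 36 were among the 14207 genes abundant enough to be tested. RNA had been sequenced from neural stem cells that were derived from the brains of male mouse embryos at E14.5 (strain label C57BL/6 x FVB/N) and grown on a coated surface in medium that held 20 ng/ml of EGF and as much bFGF. One group was 3 libraries with the label Smchd1 wild-type. The other was 3 libraries homozygous for the MommeD1 allele of Smchd1, which the labels call Smchd1 null. No label says whether the 3 libraries of a group came from separate embryos or cultures, so p-values cover only the spread between these libraries, which may be technical. The comparison asked whether these cells express the mitotic programme at a different level when Smchd1, a chromatin protein of the SMC family, is missing.

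Cells enter mitosis when cyclin B joined to Cdk1 becomes active, helped by the kinases Plk1 and Aurora A. Chromosomes then attach to the spindle through kinetochores, and the spindle checkpoint holds back the anaphase-promoting complex (APC/C) and its activator Cdc20 until attachment is complete, after which cyclin B is destroyed and the cell divides. Most of these genes are switched on together late in the cell cycle, through a promoter element called the cell cycle genes homology region (CHR) that binds the MuvB complex with B-Myb (Mybl2) and FoxM1, often beside CCAAT boxes bound by NF-Y. Neural stem cells in EGF and bFGF keep dividing in culture.

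The shared element can be read in the promoters. RefSeq windows of 300 bases (250 before and 50 after the start of transcription, GRCm38.p6) were given for 30 of the 36 genes, as 32 windows. The letters TTTGAA, the commonest form of the CHR, were present on either strand in 25 of the 32 windows (78.1%), against 17.9% of all 32851 mouse promoter windows and 11.9% of the 13609 windows of tested genes. Within 50 bases of the start they were present in 24 of 32 windows (75.0%), against 4.94% of all windows and 3.01% of those of tested genes. CCAAT, read on both strands, was in 24 of the 32 (75.0%) and in 37.4% of all windows, and at least 2 copies were in 17 (53.1%) and in 11.7%. The other CHR forms searched on both strands were TTCGAA, in 3 member windows (9.38%) and 1.56% of all, and TTTAAA, in 9 (28.1%) and 13.2%. The windows of Birc5, Bub1, Ccnb1, Cenpe, Mad2l1, Nuf2 and Nusap1 had no TTTGAA. The following stretches of 30 bases are shown because they let the element be compared across the roles described below. Each is written 5′ to 3′ on the strand of the gene, with the element in capitals (TTCAAA is TTTGAA read from the opposite strand).
Cdk1, chr10:69352910-69352939, minus strand: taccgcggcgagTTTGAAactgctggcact
Ccnb2, chr9:70421533-70421562, minus strand: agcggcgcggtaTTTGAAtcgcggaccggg
Cdc20, chr4:118437344-118437373, minus strand: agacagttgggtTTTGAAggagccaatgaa
Plk1, chr7:122159453-122159482, plus strand: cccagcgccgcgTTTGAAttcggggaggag
Cenpf, chr1:189688067-189688096, minus strand: ggcggcgggcagTTTGAAtcgctcgtgctg
Ndc80, chr17:71526811-71526840, minus strand: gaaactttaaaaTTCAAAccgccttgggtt
Kif4, chrX:100626072-100626101, plus strand: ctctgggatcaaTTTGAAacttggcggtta
Kif23, chr9:61946780-61946809, minus strand: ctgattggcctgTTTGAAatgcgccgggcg

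Counted from the RefSeq start of transcription, the element began at base -15 in Cdk1 and -18 in Cdc20, just upstream. It began just downstream in the others: base 3 in Cenpf, 3 in Kif23, 5 in Ccnb2, 20 in Kif4, 30 in Ndc80 and 31 in Plk1. The first 20 bases after the start occurred in a GENCODE transcript of the gene for 20 of the 32 windows. For Ccnb2 they did not, so positions hold only for the starts used. For each of these 8 picked genes the copy nearest the start was shown, so the closeness partly follows from the choice. Cdk1 had a further copy at base -71 and Ccnb2 at -167. In Kif2c, not shown, the nearest copy began at base -103. For 2 genes the 80 bases before the start, which overlap no annotated GENCODE exon, are shown to place CCAAT boxes beside the element, with the CHR and every CCAAT in capitals. A CCAAT on the opposite strand reads as ATTGG here.
Top2a, chr11:99024190-99024269, minus strand: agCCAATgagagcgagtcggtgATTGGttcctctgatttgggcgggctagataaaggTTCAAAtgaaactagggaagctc
Kif11, chr19:37376302-37376381, plus strand: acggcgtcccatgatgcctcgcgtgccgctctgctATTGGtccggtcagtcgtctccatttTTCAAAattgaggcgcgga

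Top2a had a CCAAT on each strand ahead of its element, and Kif11 had a single one. The bases after the start used for Kif11 were also not found in a GENCODE transcript of that gene. These matches describe letters in a window and say nothing of binding in these cells, which was not measured.

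The libraries held 18608881 to 23253367 counts. Levels are given as CPM, counts relative to the TMM-scaled library size, and, for comparison between genes, as RPKM, which is CPM divided by gene length in kilobases. Smchd1 itself had wild type levels of 271, 259.6 and 232 CPM and null levels of 30.3, 31.1 and 27.9 CPM (libraries in replicate order), so the genotype labels were matched in every library. Wild type replicate 3 stood apart from the rest: 1 record without a symbol took 44.6% of its counts, against 2.11% to 5.90% elsewhere. On raw library totals, its median chi-square per gene against the other wild type libraries was 93.6 and 99.2. Wild type replicates 1 and 2 gave 1.31 and the null pairs 0.927 to 1.18. These totals include the dominant record, so the chi-square is not separate from it. After TMM scaling, the median log2 ratio regardless of sign was 0.22 and 0.23 for wild type replicate 3 against wild type replicates 1 and 2. Between wild type replicates 1 and 2 it was 0.10, and in the null pairs 0.09 to 0.10. The sample names number wild type replicate 3 and the null libraries from 11 to 14, and the other wild type libraries in a separate range. The calls below are therefore given with and without wild type replicate 3. Of marker lists for the cells such a culture could hold, neural stem cell markers led (11 genes summing to 5867 to 6204 CPM in wild type and 5818 to 5978 CPM in null, with Vim and Fabp7 highest). Microglial markers summed to at most 3.03 CPM in any library, with Tmem119, Itgam and C1qa at 0 counts, vessel markers to at most 3.97 CPM, with Cdh5 at 0, and red cell markers to at most 1.36 CPM, with Hbb-bs at 0.

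No mitotic gene passed the test between the genotypes, and all differences were small. Of the 36 genes, 0 rose and 0 fell in the edgeR quasi-likelihood test (Benjamini-Hochberg adjusted p threshold 0.05), where 0.577% of all tested genes were called. Adjusted p values ran from 0.254 to 0.992. At an unadjusted p under 0.05 there was 1 gene, Nusap1, or 2.78% of the members, against 18.6% of all tested genes. DESeq2 and limma-voom also called 0 members, with 2.82% and 0.894% of all tested genes called. Log2 fold changes, null minus wild type, ran from -0.15 to 0.09 with a median of -0.03, and 26 of 36 were below 0. Over all tested genes the median was 0.00128, and the median size regardless of sign was 0.15, against 0.05 for the members.

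In the fit of all 6 libraries with genotype as the only term, the measurements bounded the differences closely. Standard errors of the members' log2 fold changes lay between 0.06 and 0.09. The lowest limit of any member's 95% interval was -0.32 (Bub1), a null to wild type ratio of 0.801, and the highest was 0.27 (Ccnb2), a ratio of 1.20. In that fit each member's interval therefore excludes, on its own, a fall to less than 0.801 or a rise beyond 1.20 of the wild type level, for the spread these libraries show. Some alternative fits gave wider limits. The outermost were -0.40 without null replicate 1 and 0.37 with the range of sample-name numbers as a term. In 31 of 36 genes the group means differed by less than the larger of the 2 group SDs. Groups of values did not overlap in 3 members (8.33%), Nusap1, Prc1 and Spc24, against 22.0% of all tested genes. In RNA from whole cultures, fewer cells in mitosis and less RNA per mitotic cell cannot be told apart.

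**Figure D1:**
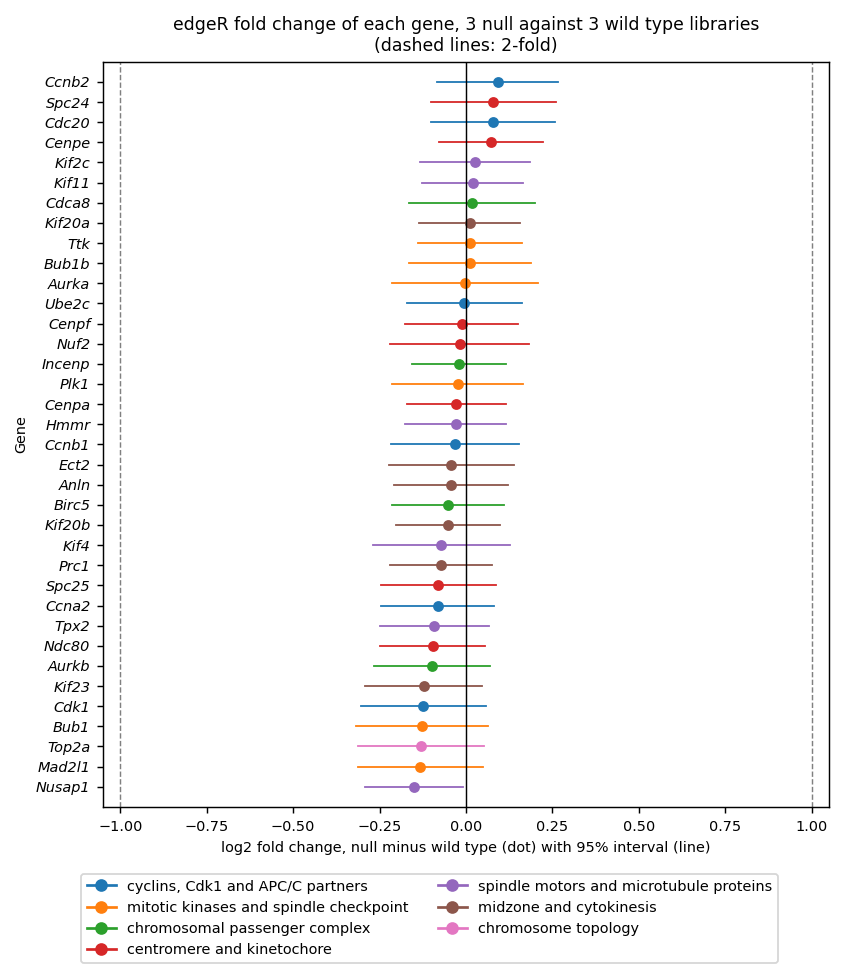
Log2 fold change, null minus wild type, for each of the 36 mitosis and spindle genes (dot, coloured by role) with its 95% interval (line) from the edgeR fit of 3 against 3 libraries. All dots lie between -0.15 and 0.09, and the intervals end well inside the dashed 2-fold lines, with -0.32 and 0.27 as the outermost limits.

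Levels per length differed far more between genes than between genotypes. Averaged over the 6 libraries, RPKM ran from 16.0 for Spc24 to 181 for Top2a, with a median of 37.7, and the median member ranked at percentile 86.9 of tested genes. Top2a, the topoisomerase that untangles sister DNA, had the highest level. Cdc20 (90.8 RPKM), Ccna2 (87.9), Ube2c (86.4) and Cdk1 (72.5) followed. The lowest were Spc24, Birc5 (16.2) and Kif20b (19.8). Raw counts behind a single value ranged from 212 (Spc24 in wild type replicate 3) to 27199 (Top2a in wild type replicate 1). Among the next-highest genes the spreads overlapped: Cdc20 was 88.3 ± 6.81 RPKM in wild type (mean ± SD, n = 3), Ccna2 90.4 ± 6.01 and Ube2c 86.5 ± 6.23.

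**Figure D2:**
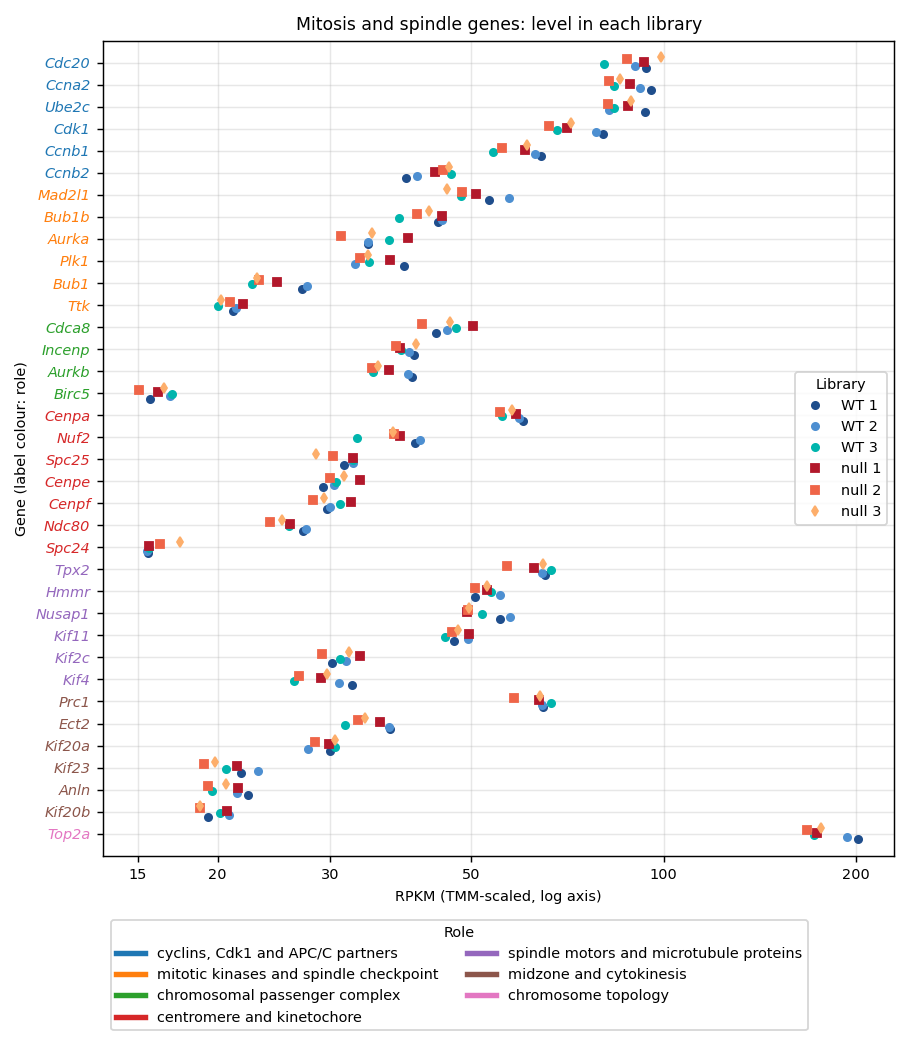
RPKM (log axis) of each of the 36 genes in each of the 6 libraries, grouped by role, with wild type as circles and null as squares or diamonds. The 6 symbols of a gene sit close together, while genes range from about 16.0 RPKM (Spc24) to 181 RPKM (Top2a).

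Among the regulators of entry and exit, Cdk1, the kinase at the centre of mitosis, had 229.7, 224 and 195 CPM in wild type replicates 1, 2 and 3 and 202, 189 and 205 CPM in null replicates 1, 2 and 3. Wild type replicates 1 and 2 were above all null libraries, and wild type replicate 3 lay among them. Its log2 fold change was -0.12 ± 0.08 (SE; 95% interval -0.30 to 0.06), with an edgeR adjusted p of 0.408. Ccnb2, the other B cyclin, had wild type levels of 60.9, 63.2 and 71.6 CPM and null levels of 67.6, 69.4 and 71.0 CPM. Wild type replicates 1 and 2 were lowest and wild type replicate 3 highest, so the groups overlapped (0.09 ± 0.08, adjusted p = 0.508). Ccnb1, the main mitotic cyclin, stood at 139.9 ± 13.1 CPM in the wild type libraries and 137 ± 6.80 CPM in the null ones (mean ± SD, n = 3 each).

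Ccna2, the cyclin of S phase and early mitosis, had wild type levels of 268, 259 and 235 CPM and null levels of 249, 231 and 241 CPM. The lowest wild type library lay within the null range (-0.08 ± 0.07). Cdc20, which activates the APC/C, had wild type levels of 168, 161 and 144 CPM and null levels of 166, 157 and 177 CPM, with wild type replicate 3 lowest and null replicate 3 highest (0.08 ± 0.08). Ube2c, the ubiquitin-conjugating enzyme of the APC/C, had wild type levels of 87.2, 76.6 and 77.8 CPM and null levels of 81.8, 76.3 and 82.6 CPM, and the groups were interleaved (-0.01 ± 0.07).

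Of the mitotic kinases and checkpoint genes, Mad2l1, whose product Mad2 inhibits Cdc20, had wild type levels of 91.9, 98.6 and 83.0 CPM and null levels of 87.7, 83.4 and 78.9 CPM. Wild type replicates 1 and 2 were above all null libraries and wild type replicate 3 was among them (-0.13 ± 0.08, adjusted p = 0.38). Bub1, a checkpoint kinase that also marks the centromere, had wild type levels of 118, 119.7 and 98.2 CPM and null levels of 107, 101 and 99.9 CPM, with wild type replicate 3 below all of the null libraries and the other wild type libraries above them (-0.13 ± 0.08, 95% interval -0.32 to 0.06). The rest were closer to 0: Plk1 -0.02 ± 0.08, Aurka -0.00 ± 0.09, Bub1b (BubR1 of the checkpoint) 0.01 ± 0.08 and Ttk (Mps1, the checkpoint's upstream kinase) 0.01 ± 0.07. Aurka varied more within the null group (75.6, 59.4 and 66.5 CPM) than between the group means (67.4 and 67.2 CPM).

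In the chromosomal passenger complex, which corrects wrong attachments and then directs cytokinesis, Aurkb is the kinase and Incenp, Birc5 (survivin) and Cdca8 (borealin) place and activate it. Aurkb had wild type levels of 78.9, 77.8 and 68.5 CPM and null levels of 72.5, 68.4 and 69.7 CPM, wild type replicate 3 again lying with the null libraries (-0.10 ± 0.07, adjusted p = 0.463). Birc5 had wild type levels of 53.6, 57.6 and 57.8 CPM and null levels of 55.2, 51.4 and 56.3 CPM, and the groups overlapped (-0.05 ± 0.07). Cdca8 stood at 0.02 ± 0.08 and Incenp at -0.02 ± 0.06, the smallest standard error of the 36. Per length, Cdca8, Incenp and Aurkb lay at 45.9, 39.5 and 37.1 RPKM, and Birc5 at 16.2.

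The 4 subunits of the Ndc80 complex, the kinetochore's microtubule coupler, are encoded by Ndc80, Nuf2, Spc24 and Spc25. Ndc80 also lies near Smchd1: on chromosome 17 (GRCm38.p6) it spans 71496100 to 71526857 and lies 20733 bases beyond the end of Smchd1 (71344489 to 71475366). Ndc80 had 59.9, 60.5 and 56.9 CPM in wild type replicates 1, 2 and 3 and 57.2, 53.3 and 55.5 CPM in null replicates 1, 2 and 3. The lowest wild type value lay just below the highest null value, and the log2 fold change was -0.10 ± 0.07 (95% interval -0.25 to 0.05, adjusted p = 0.432). Smchd1 RNA, for comparison, changed by -3.10.

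Spc24 had wild type levels of 21.0, 20.9 and 21.0 CPM and null levels of 21.0, 21.9 and 23.5 CPM, so null replicate 1 was barely above the wild type libraries and null replicate 3 was highest (0.08 ± 0.08, adjusted p = 0.586). Nuf2 stood at -0.02 ± 0.09 and Spc25 at -0.08 ± 0.07. The 4 subunits lay at 38.2 (Nuf2), 31.4 (Spc25), 26.0 (Ndc80) and 16.0 RPKM (Spc24), averaged over the libraries. Cenpa, the histone H3 variant that marks centromeres, stood at -0.03 ± 0.06, Cenpe, a kinetochore motor, at 0.07 ± 0.07, and Cenpf, a large outer kinetochore protein, at -0.01 ± 0.07.

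Among spindle motors and microtubule proteins, Nusap1, which bundles spindle microtubules near chromosomes, gave the smallest p of the 36. It had 164, 169.9 and 153 CPM in wild type replicates 1, 2 and 3 and 146, 146 and 147 CPM in null replicates 1, 2 and 3. All null libraries were below all wild type libraries, and the null values differed among themselves by little more than 1 CPM. Its log2 fold change was -0.15 ± 0.06 (95% interval -0.29 to -0.01), with an unadjusted edgeR p of 0.0402 and an adjusted p of 0.254. The Nusap1 record overlaps Oip5 (at most 13.6 CPM in any library), and reads of the 2 strands were not separated.

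Tpx2, which activates Aurora A on the spindle, had wild type levels of 285, 281 and 291 CPM and null levels of 274, 248 and 282 CPM, with null replicate 2 lowest (-0.09 ± 0.07). Kif11, the motor that pushes spindle poles apart, stood at 0.02 ± 0.06, Kif2c, which takes microtubule ends apart, at 0.03 ± 0.07, and Hmmr, a spindle assembly protein, at -0.03 ± 0.06. Kif4, a chromosome-bound motor and the X-linked member, had wild type levels of 153, 146 and 124 CPM and null levels of 137, 126 and 140.0 CPM (-0.07 ± 0.09).

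Of the genes of the central spindle and cytokinesis, Kif23, the motor of the centralspindlin complex, had wild type levels of 74.5, 79.3 and 70.6 CPM and null levels of 73.6, 65.1 and 67.8 CPM. Null replicate 1 lay above wild type replicate 3, and the log2 fold change was -0.12 ± 0.07 (adjusted p = 0.387). Kif20b had wild type levels of 108, 116 and 112 CPM and null levels of 115, 104 and 104 CPM, with null replicate 1 above wild type replicates 1 and 3 (-0.05 ± 0.07). Prc1, which crosslinks midzone microtubules, had wild type levels of 195, 194 and 200.4 CPM and null levels of 192, 175 and 193 CPM, all null libraries lying below all wild type libraries and null replicate 2 lowest (-0.07 ± 0.07, adjusted p = 0.54). Kif20a stood at 0.01 ± 0.06, Anln (anillin, of the contractile ring) at -0.04 ± 0.07 and Ect2, which activates RhoA for furrowing, at -0.04 ± 0.08. Top2a, on chromosome arms and centromeres, had wild type levels of 1054, 1013 and 897 CPM and null levels of 909, 876 and 922 CPM. Wild type replicate 3 lay among the null libraries, as for Cdk1 and Mad2l1 (-0.13 ± 0.08, adjusted p = 0.388).

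The 36 genes also differed together between single libraries of 1 genotype. Their summed level was 5690, 5660 and 5298 CPM in wild type replicates 1, 2 and 3 and 5517, 5131 and 5411 CPM in null replicates 1, 2 and 3, or 5549 ± 218 and 5353 ± 199 CPM (mean ± SD, n = 3). The groups overlapped, and the difference of the means was smaller than either SD. Null replicate 2 was the lowest of the 6 libraries for 17 genes and the highest for 0. Null replicate 1 exceeded null replicate 2 in 33 of 36 genes (91.7%), where the share over all tested genes was 50.3%, with a median log2 ratio of 0.10. Wild type replicate 3 was below the mean of the other wild type libraries in 22 of 36 genes, with a median log2 difference of -0.08 and single genes from -0.31 to 0.21. Over all tested genes 51.1% were higher in that library, and the median size of the difference regardless of sign was 0.22, against 0.09 for the members. These are descriptions of single libraries and were not tested. As a share of raw counts the members made up 0.274% of wild type replicate 3 and 0.581% to 0.648% of the other libraries, beside the dominant record in the first.

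**Figure D3:**
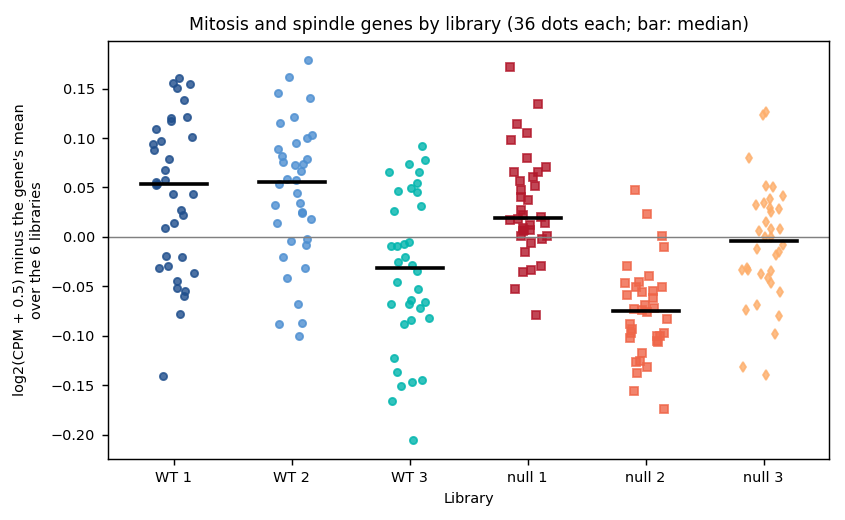
Deviation of each gene from its own mean over the 6 libraries, as log2(CPM + 0.5), with 36 dots per library and the median as a bar. The medians run from -0.08 in null replicate 2 to 0.06 in wild type replicate 2, and libraries of both genotypes lie on each side of 0.

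Leaving out wild type replicate 3 moved the members' call count from 0 to 10. In that fit of 2 against 3 libraries 9 genes fell, 25.0% of the members against 19.4% of all tested genes, and 1 rose, 2.78% against 19.7%. The 9 that fell in that fit were Bub1 (log2 fold change -0.21), Top2a (-0.20), Cdk1 (-0.20), Mad2l1 (-0.20), Nusap1 (-0.19), Kif23 (-0.16), Kif4 (-0.16), Aurkb (-0.16) and Ccna2 (-0.14), with edgeR adjusted p values from 0.00337 to 0.0476. The 1 that rose was Ccnb2 (0.16, adjusted p = 0.0372). All 36 log2 fold changes in that fit lay between -0.21 and 0.16, so the calls were of small differences. The limma-voom test with sample quality weights, which gave wild type replicate 3 a weight of 0.215 against 1.10 to 1.70 for the others, called 5 members lower (Bub1, Cdk1, Mad2l1, Nusap1 and Top2a; 13.9%, against 17.4% of all tested genes).

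With the range of sample-name numbers added as a term, so that wild type replicate 3 alone stands for wild type within the null range of numbers, 0 members passed, against 1.31% of all tested genes. There the median log2 fold change of the members was 0.02 and 18 of 36 changed sign, among them Top2a (0.01), Cdk1 (0.03), Bub1 (0.06) and Ccna2 (0.03). Nusap1 stood at -0.07 and Ccnb2 at -0.05. Of the 10 genes called without wild type replicate 3, Nusap1 and Kif23 kept their sign with the sample-name term and the other 8 did not.

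**Figure D4:**
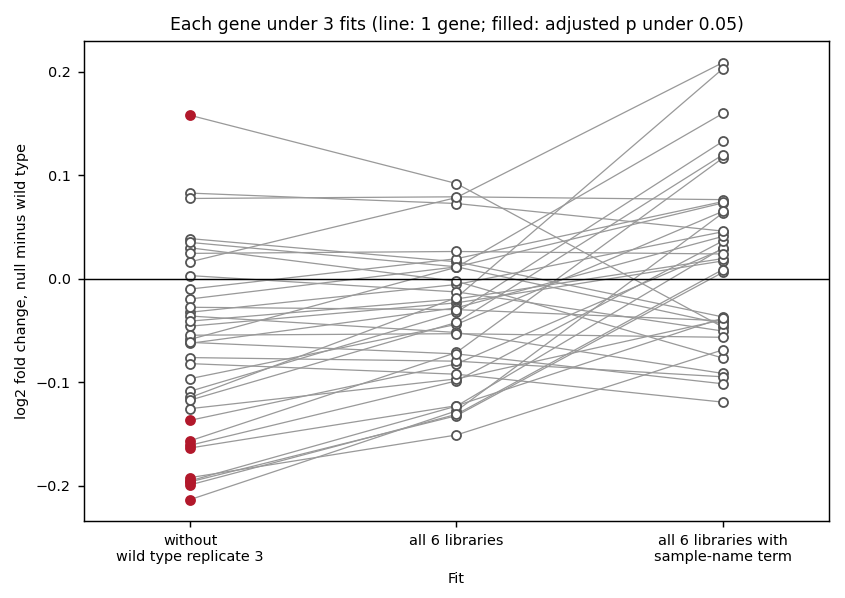
Log2 fold change of each of the 36 genes (1 line per gene) in 3 edgeR fits: without wild type replicate 3, with all 6 libraries, and with the sample-name term. Filled dots mark an adjusted p under 0.05: 10 genes in the first fit and 0 in the others, with many lines crossing 0 from left to right.

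Other genes of mitosis and its control were read from the same fit. Over 6 further lists, 154 genes were tested, of which 0 rose and 1 fell. Of all tested genes, 0.577% were called in either direction and 0.0704% lower, so 1 call in 154 is near the share called in either direction. In the lists 20 genes (12.99%) had an unadjusted edgeR p under 0.05, where 18.6% of all tested genes did. Their median log2 fold change was -0.05. The 1 that fell was Ccng2, a cyclin of the arrest list that is induced in resting cells, with wild type levels of 46.0, 43.9 and 39.9 CPM and null levels of 25.8, 32.4 and 26.8 CPM (-0.62 ± 0.10, adjusted p = 0.038), with no overlap between groups. Its log2 fold change with the sample-name term was -0.49, with an edgeR adjusted p of 0.0666. The call was kept under 11 of 19 alternatives and ended under 8: the sample-name term, the replicate block, the stricter filter, upper-quartile scaling, and leaving out null replicate 1 or 3 or wild type replicate 1 or 2 (adjusted p from 0.0528 to 0.28). Without wild type replicate 3 the lists had 11 genes called higher (7.14%, against 19.7% of all tested genes) and 47 lower (30.5%, against 19.4%).

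By list, 0 of 19 tested APC/C genes, 0 of 37 other kinetochore genes and 0 of 37 other spindle and cytokinesis genes passed edgeR, with 2 in each at an unadjusted p under 0.05 and 0 called by DESeq2 or limma-voom. The smallest p values in them were those of the APC/C subunits Anapc13 (-0.26 ± 0.08) and Anapc11 (-0.23 ± 0.09), the kinetochore gene Cenpx (-0.29 ± 0.11), Sgo1, the protector of centromere cohesion (-0.23 ± 0.09), Fam83d (-0.22 ± 0.08) and gamma-tubulin, Tubg1 (-0.19 ± 0.08). Of 24 other entry and exit regulators 0 passed and 4 (16.7%) had an unadjusted p under 0.05, near the share of all tested genes, led by the phosphatase genes Cdc14b (0.38 ± 0.12) and Cdc25b (0.22 ± 0.07), the latter an activator of Cdk1. Mki67, the proliferation marker Ki-67, had wild type levels of 877, 782 and 953 CPM and null levels of 921, 828 and 862 CPM, a log2 fold change of 0.00 ± 0.09.

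Among 22 transcription factors that act on mitotic promoters 0 passed and 4 (18.2%) had an unadjusted p under 0.05, against 18.6% of all tested genes. Lin54, the MuvB subunit that contacts the CHR, had wild type levels of 74.7, 78.3 and 57.7 CPM and null levels of 58.8, 57.5 and 55.1 CPM (-0.30 ± 0.11, adjusted p = 0.219), and wild type replicate 3 lay among the null values. Lin37, another MuvB subunit, was lower in every null library, with wild type levels of 5.93, 5.46 and 5.85 CPM and null levels of 4.37, 4.73 and 4.19 CPM (-0.37 ± 0.14, adjusted p = 0.225). Foxm1 (-0.06 ± 0.08) and Mybl2 (-0.00 ± 0.12) were near 0. Of 15 inhibitors and arrest genes, 6 (40%) had an unadjusted edgeR p under 0.05, against 18.6% of all tested genes. Directions were mixed: 7 of the 15 had a log2 fold change above 0 and 8 below. Without wild type replicate 3, 4 of them were called higher and 6 lower, against 19.7% and 19.4% of all tested genes. In this list Cdkn1a (p21) had the second smallest p after Ccng2, with wild type levels of 202, 193 and 216 CPM and null levels of 169, 177 and 181 CPM (-0.21 ± 0.07, adjusted p = 0.195). Cenph and Cdc25a, chosen after their values were seen, were lowest in wild type replicate 3. The kinetochore list of Cenph also had its lowest sum in that library, by little (1370 CPM, against 1374 to 1513 CPM elsewhere). The entry and exit list of Cdc25a did not: its sum there was 2154 CPM, against 2007 CPM in null replicate 2. Mki67 of that list was highest in wild type replicate 3. The arrest list, which holds neither gene, had its highest sum there (1320 CPM). Cenph, a kinetochore gene, had wild type levels of 19.77, 20.59 and 10.12 CPM and null levels of 17.99, 16.59 and 15.91 CPM, and Cdc25a, a phosphatase that activates cyclin-dependent kinases, wild type levels of 66.8, 68.0 and 42.0 CPM and null levels of 58.9, 56.2 and 54.8 CPM.

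Markers of other lineages also differed between libraries, and lists and single genes did not all go the same way. Pdgfra, a receptor of oligodendrocyte precursors, had wild type levels of 17.1, 18.3 and 167.4 CPM and null levels of 112.6, 128.2 and 137.5 CPM, lowest in wild type replicates 1 and 2. Summed oligodendrocyte lineage markers (12 genes, with Olig1 and Olig2 highest) ran from 1165 to 1686 CPM in wild type and from 1486 to 1580 CPM in null. Of the 11 tested, 10 had a log2 fold change above 0 (median 0.43) and 0 passed edgeR with all libraries. Without wild type replicate 3, 10 of these 11 markers rose, where 19.7% of all tested genes were called higher. Neuronal markers (12 genes, Map2 and Gap43 highest) summed to 1481 to 1511 CPM in wild type and 1383 to 1420 CPM in null, so that the null sums were all lower. The neuronal list as a whole went the other way: 7 of 10 tested markers had a log2 fold change above 0 (median 0.20), and 1 rose in edgeR, the neurofilament gene Nefl (1.89 ± 0.28, adjusted p = 0.0228, and 0.137 with the sample-name term), which had wild type levels of 0.543, 0.725 and 0.893 CPM and null levels of 2.82, 1.97 and 2.90 CPM. Without wild type replicate 3, 5 of the 10 neuronal markers rose and 3 fell, against 19.7% and 19.4% of all tested genes. Astrocyte markers (7 genes, Aldoc and Gja1 highest) summed to 318 to 387 CPM in wild type and 333 to 350.2 CPM in null, and 5 of 7 had a log2 fold change above 0 (median 0.45), with 0 passing edgeR. Fibroblast markers apart from Pdgfra were low, Col1a2 being at most 1.24 CPM. The part of this composition, of the dominant record and of the sample-name range in the members' differences was not tested, and the sample-name range cannot be told apart from genotype except through wild type replicate 3.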

How the data were processed

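Deposited values were raw counts per Entrez gene, 1 table per library, with a gene length in bases. Per the labels, libraries were made from 1 µg of total RNA with a TruSeq v2 kit, which does not mark strand, and per the submitters' processing notes the authors used featureCounts to count on mm10, with CASAVA 1.8.2, edgeR 3.8.2 and limma 3.22.0 also listed. No source used here names the aligner, the annotation or the rule for multi-mapping reads. This bears on 9 members that overlap another counted record: Ccna2, Cdc20, Aurka, Nusap1, Kif20a, Kif20b, Prc1, Anln and Ect2. It also bears on Ccnb1, Ccnb2 and Kif4, which have named pseudogenes. The overlapping record reached 129.8 CPM for Kif20a (Brd8 or Cdc23), which itself averaged 115 CPM in wild type. For Ccna2 (Exosc9), Aurka (Cstf1) and Cdc20 (Elovl1) it reached 64.1, 42.0 and 36.4 CPM.

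Symbols, coordinates and promoters came from RefSeq tables of GRCm38.p6, matching 25275 of 27179 IDs (93.0%). Counts were filtered (filterByExpr), scaled (TMM) and fitted with edgeR 4.0.16 (R 4.3.3) by robust quasi-likelihood with genotype as the only term. The two-sided test was adjusted by Benjamini-Hochberg over all 14207 tested genes at 0.05. The F statistic and fold change gave the standard error. RPKM was CPM per kilobase of deposited length. The procedure was tested on simulated data. These held no library that stood apart as wild type replicate 3 did, and the planted changes were larger than any member's. The simulation therefore cannot show how calls of differences as small as the members' behave. Depth was 18608881 to 23253367 counts per library.

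The members and lists were chosen with earlier results of these data known. Every member is accounted for. Values in every library are given for the 10 smallest p values, the 5 largest changes, the 5 highest and 3 lowest RPKM, and Ndc80. Each pathway list is represented by its 2 smallest p values and any call, and each marker list by its 2 highest genes; other names were picked after values were seen. The alternatives tried included DESeq2 1.42.0, limma-voom 3.58.1 with and without quality weights, 2 scalings, 2 filters, no robust moderation, a replicate block, a sample-name term, only the libraries named 11 to 14, removal of records above 1% of a library, thinning and leaving out each library.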

Additional observations from a re-analysis of the deposited data

How the results depend on the processing

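The members' call count was 0 under 17 of 19 alternatives planned with the design; it was 5 with limma-voom quality weights and ran from 0 to 10 when each library was left out in turn, 10 being without wild type replicate 3. No member was called in opposite directions, but only 2 settings called any, and both gave wild type replicate 3 no or little weight. Their agreement therefore says little about the other settings. Signs of uncalled values changed for up to 18 members (sample-name term, and the libraries named 11 to 14 alone). Upper-quartile scaling shifted the median of all genes to 0.03 and that of the members to 0.00099. The count over the other mitosis lists, 1 in the edgeR fit, was 8 with the libraries named 11 to 14, 52 with quality weights, 5 with the sample-name term, and 0 with the stricter filter or upper-quartile scaling, and ran from 0 to 58 when each library was left out. Over all genes the count of 82 became 401 with DESeq2, 127 with limma-voom, 5168 with quality weights, 222 without a filter, 376 with the libraries named 11 to 14 and 186 with the sample-name term, and ran from 30 to 5676 when each library was left out. The causes were not tested. With the replicate block the counts were 0 members, 0 other mitosis genes and 54 genes in all. No sign of pairing by the shared numbers was seen: deviations of same-numbered libraries correlated at -0.0059, 0.0275 and -0.0411, and not every library correlated best with its own number. These correlations cannot exclude pairing, because wild type replicate 3 lay far from the other wild type libraries and weighed heavily on the deviations. The lowest count behind a member was 212, for Spc24 in wild type replicate 3.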
